A study of Mus musculus with 21 samples.

Results

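The transcripts described here are those of 7 genes of the calcineurin to NFAT route: the transcription factors Nfatc1, Nfatc2 and Nfatc3, the calcineurin regulator Rcan1, and the calcineurin catalytic subunits Ppp3ca, Ppp3cb and Ppp3cc. They were taken by name as members of this route, with earlier results of these data known, and were matched through their Ensembl identifiers among 47643 genes in the count table. All 7 had at least 10 counts over the 21 libraries.

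When the T cell receptor is engaged, phospholipase C releases calcium from internal stores, and store-operated channels then let more calcium in. Raised calcium activates calcineurin, a phosphatase made of a catalytic A subunit (from Ppp3ca, Ppp3cb or Ppp3cc) and a regulatory B subunit (Ppp3r1 in lymphocytes). Calcineurin removes phosphates from NFAT proteins, which then enter the nucleus and bind DNA, often together with AP-1. NFAT activity is therefore set largely by phosphorylation and location, which a transcript count does not show. In T cells, Nfatc1 and Rcan1 are also known as targets of this route, Rcan1 through an internal promoter that gives a shorter transcript.

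RNA was measured by 3′ mRNA sequencing in sorted splenic CD4+ T cells of Tg4 Tiger Nr4a3-Tocky mice. All groups share 3 alleles, which are the Tg4 transgenic receptor for a myelin basic protein (MBP) peptide, the Il10-GFP reporter (Tiger) and the Nr4a3-Tocky reporter, whose Timer protein is blue when new and red once mature. Mice were given the [4Y] variant of this peptide under the skin without adjuvant, at a dose of 0.8 μg or of 80 μg, and were sampled after 4 h, 12 h or 24 h, and an untreated control group was sampled beside them, with 3 mice in each of the 7 groups; the ages of the mice are not given in the sources used here. The sort at 4 h took cells with new Timer only (Blue+Red−), that at 12 h cells with both forms (Blue+Red+), and that at 24 h cells with mature Timer only (Blue−Red+), so time and sorting gate cannot be told apart, while the doses were compared within the same gate; the gate of the control cells is not given in the sources used here. The Tocky reporter is itself driven by Nr4a3, an NFAT-responsive gene, so cells were selected on an output of the route studied here.

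Library totals ranged from 2352800 to 6244279 counts, with a median of 3571896. A single gene, Gm42418, took 17.0% to 27.8% of the counts of a library, with 26.1% to 27.8% at 24 h after 80 μg. Its part in the results was not tested. The T cell markers Cd3e, Cd3g, Cd4, Thy1 and Lck were all detected. Their summed level was 1686 to 1857 CPM (counts scaled to the same library total) in the control libraries, 826 to 936 at 4 h after 0.8 μg and 344 to 414 at 4 h after 80 μg, 677 to 937 at 12 h and 1265 to 1509 at 24 h. The 5 B cell markers summed to 27.2 to 63.7 CPM in the control libraries and to 2.03 to 35.0 CPM in the immunised libraries. The 6 myeloid markers summed to 3.00 to 38.3 CPM and the 3 NK cell markers to 0 to 4.49 CPM in any library, and 2 of the 3 NK cell markers were at 0 throughout the 0.8 μg groups at 4 h and 12 h and the 80 μg group at 24 h. The 2 CD8 T cell markers summed to 13.1 to 51.3 CPM and the 5 erythroid markers to 5.31 to 212 CPM. The part of these shifts in the results was not tested. In the 0.8 μg group at 12 h, replicate 3 stood apart from the other 2 replicates: the chi-square per gene between their counts was 14.8 and 14.4, against 3.35 between replicates 1 and 2 and 3.47 to 9.49 among replicates in the other groups. Gm42418 took 25.7% of its counts, against 17.0% and 18.2% in the other 2. Calls of the 7 members that change without this library are given with their value. The number of all genes passing the interaction of dose and time without it is given below. Calls of other genes between 2 groups are not given without it. To a lesser degree, replicate 2 of the 80 μg group at 12 h also stood apart. Its chi-square per gene was 8.70 and 9.49, against 4.87 between replicates 1 and 3. Gm42418 took 24.5% of its counts, against 20.2% and 19.9% in replicates 1 and 3.

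In the annotation of genome build GRCm38 (GENCODE M21), Nfatc1 (ENSMUSG00000033016) spans bases 80606205 to 80713071 of chromosome 18 on the minus strand. Its annotated coding transcripts start from 2 separate regions and end in 2 separate regions. Counting 3′ reads per gene sums all of these, so the short and long NFATc1 isoforms were not separated.

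The other 6 genes lie on 5 chromosomes. Nfatc2 (ENSMUSG00000027544) spans 168476410 to 168601657 of chromosome 2 on the minus strand, and Nfatc3 (ENSMUSG00000031902) spans 106058840 to 106130537 of chromosome 8 on the plus strand. Rcan1 (ENSMUSG00000022951) spans 92391953 to 92470867 of chromosome 16 on the minus strand. Ppp3ca (ENSMUSG00000028161) spans 136670124 to 136937727 of chromosome 3 on the plus strand. Ppp3cb (ENSMUSG00000021816) and Ppp3cc (ENSMUSG00000022092) are both on the minus strand of chromosome 14, at 20499364 to 20546573 and 70217865 to 70289471. Exons of Nfatc3 overlap Esrp2 on the opposite strand, which had 2 counts in all over the 21 libraries. Exons of Ppp3cc overlap Gm49417 on the opposite strand, which was not analysed here.

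Rcan1, Nfatc2 and Nfatc3 each have a pair of promoters in the RefSeq table (GRCm38.p6), and the counts cannot say which promoter was used. The 250 bases upstream of each start are printed for Rcan1 and Nfatc2, whose pairs include a window with 3 NFAT cores. The GENCODE annotation gives the coding transcripts of Rcan1 4 separate start regions, so its pair does not cover all annotated starts. None of these windows overlaps an annotated exon. Capitals mark matches, on either strand, to the NFAT core GGAAA, read as TTTCC where it lies on the other strand, the AP-1 motif TGANTCA and the cyclic AMP response motif TGACGTCA, which do not overlap each other here. The intragenic Rcan1 promoter at chr16:92400079-92400328 (minus strand) held 3 NFAT cores, 1 AP-1 motif and 1 cyclic AMP response motif, and the upstream one at chr16:92466170-92466419 held none of the 3 motifs. The upstream window also lies within the annotated span of Rcan1, so its name gives only its position relative to the other window. The Nfatc2 window at chr2:168601658-168601907 (minus strand) held 3 NFAT cores and the one at chr2:168590366-168590615 held 1, with no other match. Of 32851 RefSeq promoter windows of the same length, 55.6% held an NFAT core and 6.39% held 3 or more, 6.75% held the AP-1 motif and 1.55% the cyclic AMP response motif. These matches describe letters only.
Rcan1 intragenic promoter: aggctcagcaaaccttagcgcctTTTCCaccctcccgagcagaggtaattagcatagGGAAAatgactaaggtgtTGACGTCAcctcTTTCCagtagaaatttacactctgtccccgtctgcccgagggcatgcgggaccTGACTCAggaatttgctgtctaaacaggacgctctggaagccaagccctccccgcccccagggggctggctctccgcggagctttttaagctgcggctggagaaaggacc
Rcan1 upstream promoter: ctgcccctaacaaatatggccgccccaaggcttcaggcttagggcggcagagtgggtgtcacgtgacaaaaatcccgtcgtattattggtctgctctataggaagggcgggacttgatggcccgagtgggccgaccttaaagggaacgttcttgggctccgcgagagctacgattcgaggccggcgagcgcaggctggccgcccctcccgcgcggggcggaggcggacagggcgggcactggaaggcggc
Nfatc2 distal promoter: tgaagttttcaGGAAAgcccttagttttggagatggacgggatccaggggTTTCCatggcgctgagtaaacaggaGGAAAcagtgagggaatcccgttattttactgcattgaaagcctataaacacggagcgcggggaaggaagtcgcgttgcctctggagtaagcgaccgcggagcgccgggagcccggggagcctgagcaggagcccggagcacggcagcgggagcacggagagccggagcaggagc
Nfatc2 proximal promoter: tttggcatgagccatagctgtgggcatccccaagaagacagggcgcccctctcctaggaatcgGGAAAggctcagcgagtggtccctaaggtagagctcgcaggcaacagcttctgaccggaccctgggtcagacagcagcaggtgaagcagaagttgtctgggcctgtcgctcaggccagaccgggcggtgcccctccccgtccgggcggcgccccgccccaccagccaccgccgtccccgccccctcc
Windows of 4 of the members were searched, 7 in all, and those of Nfatc1, Ppp3ca and Ppp3cc were not searched. The Ppp3cb window at chr14:20546574-20546823 (minus strand) is printed for contrast, since Ppp3cb moved least of the 7 transcripts: it also held 3 NFAT cores and neither of the other motifs. The 2 windows of Nfatc3 held 1 and 0 NFAT cores.
Ppp3cb promoter: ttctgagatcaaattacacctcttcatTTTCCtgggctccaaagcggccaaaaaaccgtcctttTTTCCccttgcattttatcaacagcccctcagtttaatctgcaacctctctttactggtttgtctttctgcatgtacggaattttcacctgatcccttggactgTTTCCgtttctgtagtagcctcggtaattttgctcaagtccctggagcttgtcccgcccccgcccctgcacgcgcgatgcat

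Levels are given below as normalised read counts, that is counts divided by each library's DESeq2 size factor. Because they are relative to the rest of the library, fewer cells of a type and less RNA per cell cannot be told apart in them. Fold changes are DESeq2 log2 fold changes shrunken with a normal prior, from a fit to all 21 libraries, with their standard error (SE) and a p-value adjusted over all genes tested. A transcript is said to have risen or fallen where the adjusted p was under 0.05 and the absolute log2 change above 1, and "by adjusted p alone" where the second condition was dropped.

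**Figure D1:**
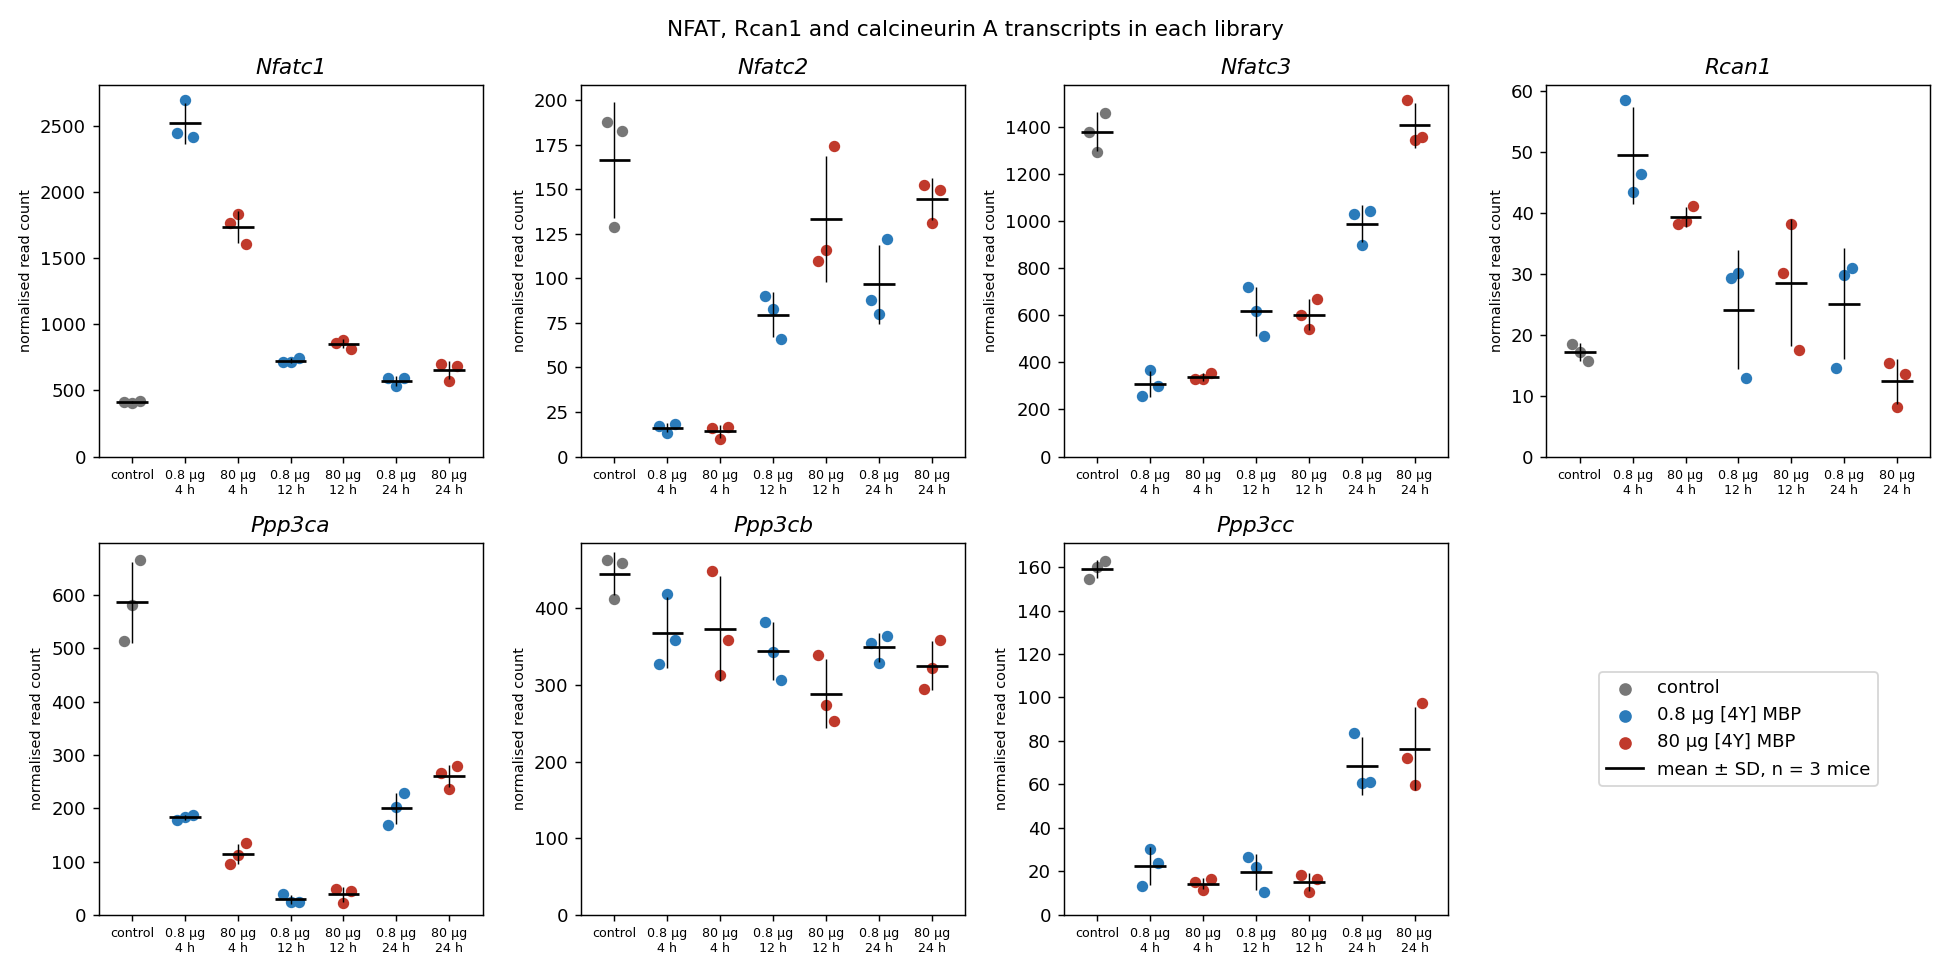
Normalised read counts (vertical axes, linear and starting at 0) of the 7 transcripts in each library, by group (horizontal axes). Points are libraries, and lines and bars are the mean and SD of 3 mice. At 4 h Nfatc1 lies at 1606 to 2697, above every other group, and Nfatc2 at 9.69 to 18.3, below every other group, and Ppp3cb overlaps between most groups.

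The first question was how antigen changed each transcript against control. At 4 h, 2 of the 7 rose and 4 fell after 0.8 μg, and the same numbers rose and fell after 80 μg. Of all genes tested, 40.7% and 43.5% passed in these comparisons, and 54.6% and 57.1% by adjusted p alone, where the members numbered 6 at each dose. At 12 h, 4 members passed at each dose against 37.7% and 37.9% of all genes, and by adjusted p alone 6 and 5 against 53.1% and 52.7%. At 24 h, 2 members passed at each dose against 17.3% and 20.2% of all genes, and by adjusted p alone 6 and 4 against 36% and 39.1%. The median absolute log2 change of the 7 members was 2.16 and 2.07 at 4 h (0.8 μg and 80 μg), against 0.98 and 1.06 over all genes tested. It was 1.04 at both doses at 12 h, against 0.92 and 0.94, and 0.52 and 0.48 at 24 h, against 0.56 and 0.60.

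Of the 3 NFAT members, Nfatc1 was the transcript that rose. The control libraries held 408.7, 413 and 418 normalised counts. At 4 h the 0.8 μg libraries held 2417, 2445 and 2697 and the 80 μg libraries 1606, 1766 and 1837. The 2 doses did not overlap with each other or with control, and the lower dose gave the higher level. At 12 h Nfatc1 stood at 714, 716 and 748 after 0.8 μg and at 816, 857 and 885 after 80 μg, and at 24 h at 531, 593 and 594 and at 573, 683 and 703. Every immunised library was thus above every control library, at each time. The log2 change from control was 2.60 (SE 0.09, adjusted p = 1.37e-173) and 2.07 (SE 0.09, adjusted p = 5.93e-109) at 4 h, a 6.07-fold and a 4.19-fold rise by DESeq2. At 12 h it was 0.81 (SE 0.10, adjusted p = 1.39e-16) after 0.8 μg, short of the fold threshold, and 1.04 (SE 0.09, adjusted p = 1.67e-27) after 80 μg. At 24 h it was 0.47 and 0.66, higher by adjusted p alone at both doses. In order of mean level, the only neighbouring groups that overlapped were the 2 doses at 24 h.

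Nfatc2, the NFAT factor abundant in resting T cells as protein, went the other way. Control libraries held 129, 183 and 188 normalised counts. At 4 h it fell to 13.2, 17.2 and 18.3 after 0.8 μg and to 9.69, 16.2 and 16.3 after 80 μg, from 10 to 19 raw counts per library. The 2 doses overlapped at this time and neither came near the control range. DESeq2 gave log2 changes of -3.25 (SE 0.30, adjusted p = 1.12e-25) and -3.47 (SE 0.30, adjusted p = 7.65e-29), 9.54-fold and 11.1-fold lower. At 12 h the 0.8 μg libraries held 65.8, 82.7 and 90.2 and the 80 μg libraries 109.6, 116 and 174. At 24 h they held 80.2, 87.6 and 122 and 131, 149.8 and 152. After 80 μg, then, the range overlapped that of the control from 12 h on, while after 0.8 μg all 6 libraries of 12 h and 24 h stayed below it. Against control, the 0.8 μg group was at -1.04 (SE 0.24, adjusted p = 4.02e-05) at 12 h and at -0.77 (adjusted p = 0.00413) at 24 h, and the 80 μg group at -0.32 (adjusted p = 0.247) and -0.20 (adjusted p = 0.523). The fall of 12 h lay just past the fold threshold and came to -0.93 (adjusted p = 0.00115) without replicate 3 of the 0.8 μg group. It was also short of the threshold without replicate 1 or 3 of the control, at -0.93 and -0.97, and in a fit of only the groups compared, at -0.97. After 80 μg, the 12 h value became -0.55 (adjusted p = 0.0479) without replicate 3 of that group.

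Nfatc3, the NFAT factor also known from thymic development, fell at 4 h and returned in steps. Control libraries held 1294, 1378 and 1459 normalised counts. At 4 h, they held 255, 299 and 368 after 0.8 μg and 327, 329.9 and 355 after 80 μg, and at 12 h 513, 617 and 719 and 539.99, 598 and 669. At 24 h the 0.8 μg libraries held 896, 1028 and 1039.6, still below the control range, and the 80 μg libraries 1345, 1357 and 1513, which overlapped it. The log2 change was -2.16 (SE 0.13, adjusted p = 6.2e-63) and -2.02 (SE 0.13, adjusted p = 6.2e-57) at 4 h and -1.15 and -1.19 (SE 0.12 for both) at 12 h. At 24 h it was -0.48 (adjusted p = 0.000381) after 0.8 μg, lower by adjusted p alone, and 0.03 (SE 0.12, adjusted p = 0.882) after 80 μg.

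The ratio between NFAT transcripts within a library does not depend on how libraries are scaled, and is given without a test. The log2 ratio of Nfatc1 to Nfatc2 counts lay between 1.14 and 1.67 in the control libraries, between 7.04 and 7.68 at 4 h after 0.8 μg and between 6.62 and 7.57 after 80 μg. It lay between 2.98 and 3.51 and between 2.23 and 2.97 at 12 h, and between 2.28 and 2.76 and between 2.13 and 2.21 at 24 h. The mean at 4 h was 5.96 and 5.65 log2 units above that of the control, and at 24 h 1.26 and 0.84 units, with no immunised library inside the control range. The ratio of Nfatc1 to Nfatc3 changed sign: it lay between -1.80 and -1.66 in control, between 2.88 and 3.26 and between 2.18 and 2.49 at 4 h, and between -0.81 and -0.76 and between -1.23 and -0.99 at 24 h. At 12 h it lay between -0.01 and 0.54 after 0.8 μg and between 0.29 and 0.71 after 80 μg.

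**Figure D2:**
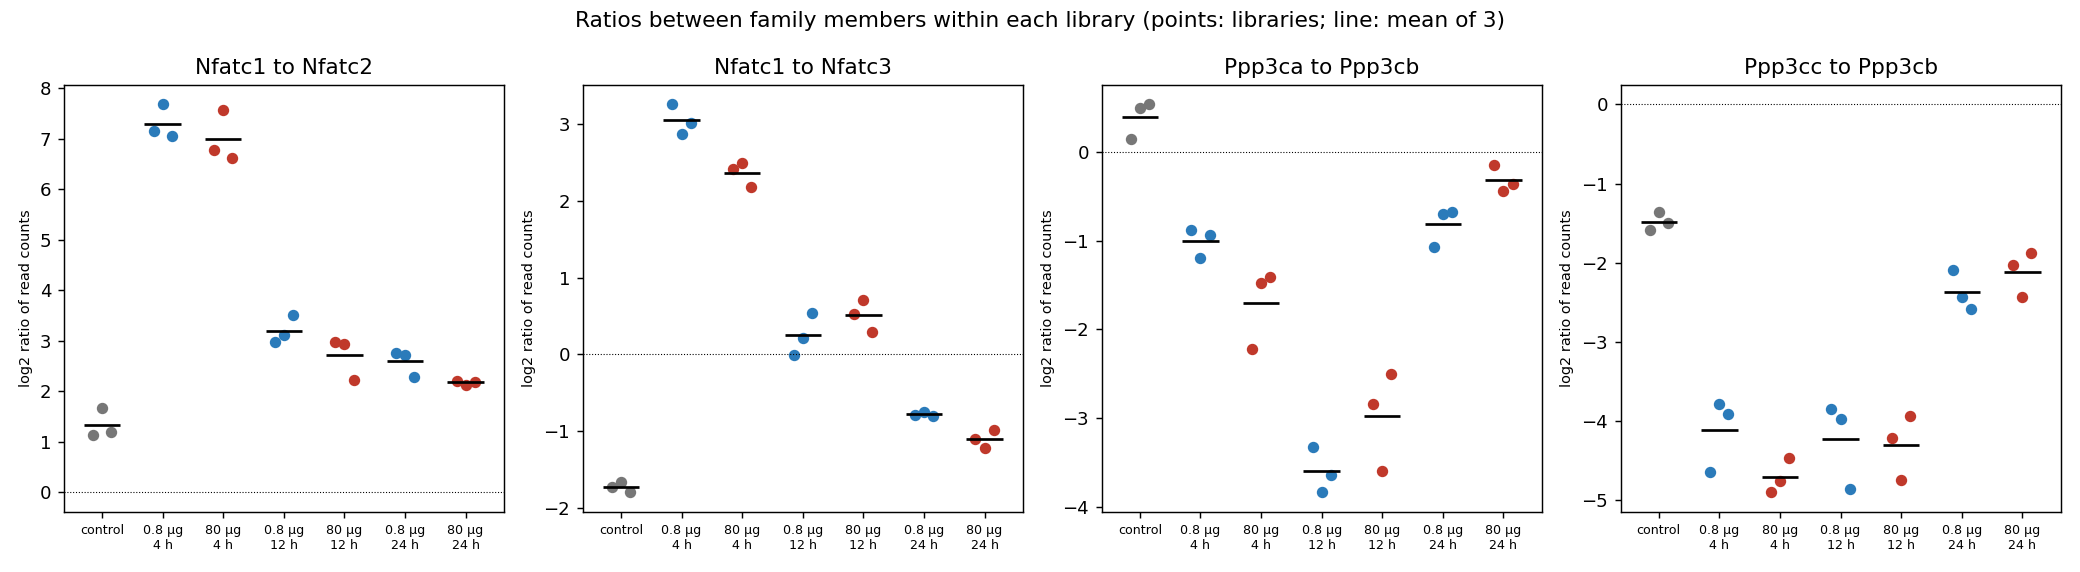
Log2 ratio of read counts between family members (vertical axes) in each library, by group (horizontal axes), for Nfatc1 to Nfatc2, Nfatc1 to Nfatc3, Ppp3ca to Ppp3cb and Ppp3cc to Ppp3cb. Points are libraries and lines the mean of 3 mice. The ratio of Nfatc1 to Nfatc2 is 1.14 to 1.67 in control and above 6 in every 4 h library, and the ratio of Ppp3ca to Ppp3cb is lowest at 12 h, with group means of -3.60 and -2.98.

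Rcan1, whose product binds and restrains calcineurin, was the other member that rose, from a low level. Control libraries held 15.7, 17.2 and 18.6 normalised counts. They held 43.5, 46.4 and 58.5 at 4 h after 0.8 μg and 38.2, 38.7 and 41.2 after 80 μg, from 33 to 58 raw counts, with no overlap with control. The log2 change was 1.46 (SE 0.39, adjusted p = 0.000564) and 1.14 (SE 0.39, adjusted p = 0.00805). Scaling by library totals put the second at 0.99, short of the fold threshold. At 12 h the groups spread widely, with 12.9, 29.4 and 30.1 after 0.8 μg and 17.5, 30.1 and 38.2 after 80 μg. At 24 h the libraries held 14.6, 29.8 and 31.0 and 8.10, 13.6 and 15.3. None of these 4 groups passed against control, with log2 changes of 0.48 (adjusted p = 0.322), 0.71 (adjusted p = 0.125), 0.52 (adjusted p = 0.338) and -0.48 (adjusted p = 0.396), although all 3 libraries of 80 μg at 24 h lay below the control range. The low level of 12 h after 0.8 μg is that of replicate 3, without which the change was 0.75 (adjusted p = 0.121). After 80 μg, the 12 h change was 0.95 (adjusted p = 0.0443) without replicate 3.

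Among the calcineurin catalytic subunits, Ppp3ca fell furthest, with its lowest level at 12 h. Control libraries held 513, 581 and 665 normalised counts. At 4 h it fell to 178, 183 and 188 after 0.8 μg and to 96.1, 112 and 135 after 80 μg. At 12 h it stood at 24.1, 24.7 and 38.2 and at 22.7, 44.7 and 47.5, and at 24 h at 169, 202 and 228 and at 237, 266 and 279. No immunised library reached the control range. The log2 change was -1.67 (SE 0.18) and -2.33 (SE 0.18) at 4 h. It was -4.29 (SE 0.22, adjusted p = 1.89e-80) and -3.92 (SE 0.21, adjusted p = 2.52e-77) at 12 h, 19.5-fold and 15.1-fold lower by DESeq2. At 24 h it was -1.54 (SE 0.18) and -1.16 (SE 0.17), so that Ppp3ca remained 2.91-fold and 2.23-fold below control.

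Ppp3cc was low at 4 h and 12 h alike. Control libraries held 155, 160.2 and 163 normalised counts. At 4 h, they held 13.1, 23.7 and 30.3 after 0.8 μg and 11.6, 15.0 and 16.3 after 80 μg, and at 12 h 10.6, 21.8 and 26.5 and 10.3, 16.5 and 18.3, on 9 to 29 raw counts. All 4 groups overlapped each other. The log2 change was -2.79 (SE 0.32) and -3.38 (SE 0.33) at 4 h and -2.92 (SE 0.32) and -3.34 (SE 0.33) at 12 h. At 24 h the libraries held 60.6, 60.9 and 83.7 after 0.8 μg and 59.6, 72.3 and 97.4 after 80 μg, at -1.20 (SE 0.28, adjusted p = 0.000141) and -1.03 (SE 0.28, adjusted p = 0.000931). The 24 h change after 80 μg lay just past the fold threshold, and without replicate 3 of the control or replicate 2 of the 80 μg group it came to -0.99 and -0.89, leaving 1 member called in that comparison in place of 2.

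Ppp3cb was the catalytic subunit transcript that stayed nearest its control level. Control libraries held 413, 459.7 and 464 normalised counts. They held 328, 358 and 419 at 4 h after 0.8 μg and 314, 358 and 449 after 80 μg, overlapping the control. At 12 h they held 306, 343 and 382 and 253, 274 and 339, and at 24 h 328, 355 and 364 and 295, 322 and 359, all below the control range. No change passed the fold threshold. By adjusted p alone it was lower at 12 h, at -0.37 (adjusted p = 0.0213) and -0.62 (adjusted p = 4.98e-05), and at 24 h, at -0.35 (adjusted p = 0.0429) and -0.45 (adjusted p = 0.00627), but not at 4 h, at -0.27 (adjusted p = 0.0943) and -0.25 (adjusted p = 0.118) by DESeq2. Scaled by library totals, the 4 h values were -0.42 (adjusted p = 0.0229) and -0.41 (adjusted p = 0.0267), and without replicate 1 of the 80 μg group the second was -0.39 (adjusted p = 0.0196). The first was -0.33 (adjusted p = 0.0478) in thinned counts and -0.36 (adjusted p = 0.0447) without replicate 2 of the 0.8 μg group. Without replicate 3 of the 0.8 μg group at 12 h, its first 12 h value was -0.29 (adjusted p = 0.106). Neither value after 0.8 μg was stable: leaving out any of 4 libraries at 12 h, or any of 5 at 24 h, of the 6 compared raised the adjusted p above 0.05, to between 0.0533 and 0.148. At 12 h it was also above 0.05 with library totals (adjusted p = 0.0561) and in a fit of only the groups compared (adjusted p = 0.0841).

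The ratios of Ppp3ca and Ppp3cc to Ppp3cb restate these levels within each library. They were added after Ppp3cb had been seen to stay nearest its control level, and carry no test. The log2 ratio of Ppp3ca to Ppp3cb lay between 0.15 and 0.53 in control, and between -1.19 and -0.88 and between -2.22 and -1.41 at 4 h. At 12 h it lay between -3.83 and -3.32 after 0.8 μg and between -3.59 and -2.50 after 80 μg, and the doses overlapped. At 24 h it lay between -1.07 and -0.68 and between -0.44 and -0.15. The ratio of Ppp3cc to Ppp3cb lay between -1.58 and -1.37 in control, between -4.64 and -3.79 and between -4.90 and -4.46 at 4 h, between -4.86 and -3.85 and between -4.74 and -3.93 at 12 h, and between -2.58 and -2.09 and between -2.43 and -1.88 at 24 h.

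The study's own question was how the strength of the antigen signal shapes the response, so the 2 doses were compared within each time and gate. None of the 7 members passed both thresholds at 4 h, 12 h or 24 h, where 5.85%, 2.79% and 1.56% of all genes did. By adjusted p alone, 2 members passed at 4 h and 1 at each later time, against 12%, 6.27% and 5.93% of all genes.

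At 4 h Nfatc1 was lower after 80 μg than after 0.8 μg by DESeq2, at a log2 difference of -0.54 (SE 0.08, adjusted p = 5.64e-09), with no overlap of the libraries. Ppp3ca was also lower after 80 μg, at -0.66 (SE 0.19, adjusted p = 0.00659), again with no overlap. Without replicate 1 of the 80 μg group, this came to -0.56 (adjusted p = 0.0779). At 12 h Nfatc2 was higher after 80 μg, at 0.72 (SE 0.24, adjusted p = 0.0397), with all 3 libraries above those of 0.8 μg. This difference depends on single libraries and on the processing, since leaving out 1 of the 6 gave 0.49 to 0.84 with adjusted p from 0.0298 to 0.306, above 0.05 in 5 of the 6 cases, and 0.62 (adjusted p = 0.155) without replicate 3 of 0.8 μg. It was 0.69 (adjusted p = 0.0859) with library totals and 0.58 (adjusted p = 0.10) in a fit of only the groups compared. At 24 h Nfatc3 was higher after 80 μg, at 0.51 (SE 0.12, adjusted p = 0.00123), without overlap, and at 0.40 (adjusted p = 0.091) when libraries were scaled by their totals.

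The other dose differences did not pass by adjusted p. Their unshrunken 95% intervals show what sizes the data leave possible. For Nfatc1 the interval was 0.06 to 0.41 at 12 h (adjusted p = 0.10) and 0.01 to 0.37 at 24 h (adjusted p = 0.253). For Nfatc2 it was -0.96 to 0.51 at 4 h and 0.12 to 1.05 at 24 h (adjusted p = 0.138). For Nfatc3 it was -0.12 to 0.40 at 4 h and -0.28 to 0.21 at 12 h. For Rcan1 it was -1.07 to 0.40 at 4 h, -0.54 to 1.01 at 12 h and -1.87 to -0.21 at 24 h (adjusted p = 0.138). For Ppp3ca it was -0.12 to 0.88 at 12 h and 0.03 to 0.74 at 24 h (adjusted p = 0.235). For Ppp3cb all 3 intervals lay between -0.54 and 0.30, and for Ppp3cc between -1.38 and 0.74. The range for Ppp3cb excludes a 2-fold change in either direction, and those of Nfatc2, Rcan1 and Ppp3cc do not.

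Whether the dose effect itself differed between times was tested with the interaction of dose and time in the 18 immunised libraries, a DESeq2 likelihood ratio test, in which 10.4% of all genes passed. Without replicate 3 of the 0.8 μg group at 12 h, 1290 genes passed in place of 1036. Of the members, 2 passed. For Nfatc1 (adjusted p = 4.78e-09) the difference of 80 μg from 0.8 μg went from -0.54 at 4 h to 0.23 at 12 h and 0.19 at 24 h. For Ppp3ca (adjusted p = 0.00547) it went from -0.66 to 0.37 and 0.38. Nfatc3 had an adjusted p of 0.0752, and 0.0103 without replicate 3 of the 0.8 μg group at 12 h, 0.0403 without replicate 3 of the 80 μg group at 12 h and 0.0362 without replicate 1 of the 0.8 μg group at 4 h. The other 4 members had adjusted p-values of 0.335 to 0.728.

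**Figure D3:**
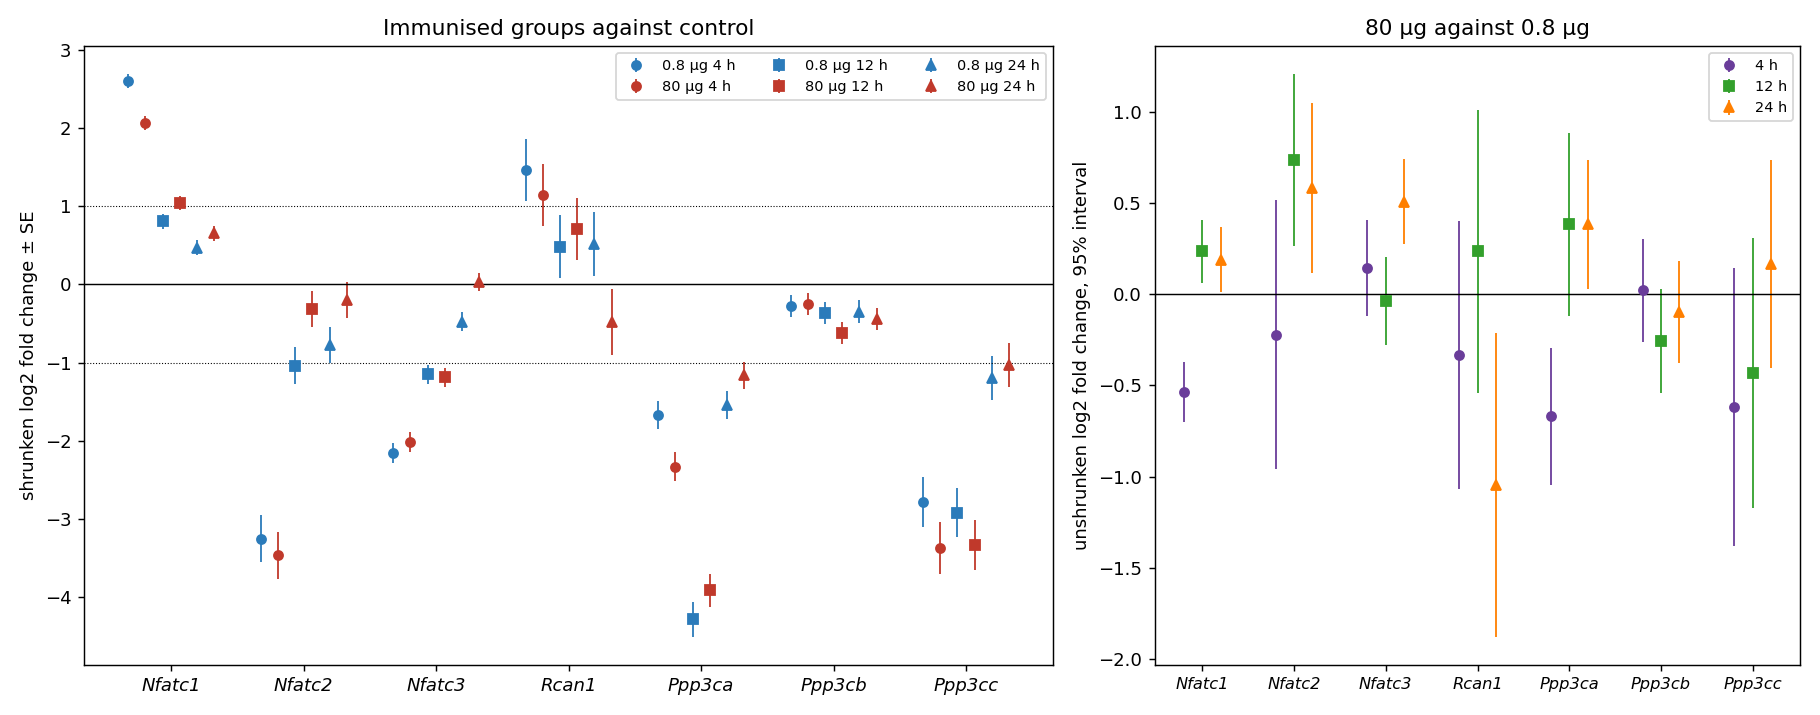
Left, shrunken log2 fold change with its SE of each transcript in the 6 immunised groups against control, with dotted lines at the fold threshold of 1; right, unshrunken log2 difference of 80 μg from 0.8 μg with its 95% interval at 4 h, 12 h and 24 h. Nfatc1 stands at 2.60 and 2.07 at 4 h, and Ppp3ca reaches -4.29 at 12 h. In the right panel, the 4 h intervals of Nfatc1 and Ppp3ca lie below 0 and those of their later times mostly above it.

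Between neighbouring times within a dose, Nfatc1 fell from 4 h to 12 h by 1.79 on the log2 scale after 0.8 μg and by 1.02 after 80 μg, while Nfatc2 rose by 2.21 and 3.15. The Nfatc1 step after 80 μg was just past the fold threshold, and was -0.98 without replicate 2 of the 4 h group, -0.996 without replicate 3 of the 12 h group and -0.89 with library totals. Nfatc3 rose by 1.01 after 0.8 μg, also just past it, and was at 0.88 to 0.99 without replicate 1 or 3 at 4 h or replicate 1 at 12 h, at 0.996 in thinned counts and at 0.99 in a fit of only the groups compared. After 80 μg this step was 0.83, higher by adjusted p alone. Rcan1 was lower by adjusted p alone from 4 h to 12 h after 0.8 μg, at -0.98 (adjusted p = 0.0255 by DESeq2), and at -0.72 (adjusted p = 0.14) without replicate 3 at 12 h. It was at -0.83 (adjusted p = 0.114) and -1.01 (adjusted p = 0.0504) without replicate 1 or 3 at 4 h, -0.81 (adjusted p = 0.0747) with library totals and -0.89 (adjusted p = 0.0812) in thinned counts. It passed both thresholds under 5 other settings, at -1.02 with edgeR and with unshrunken changes, -1.05 without replicate 2 at 4 h, and -1.12 and -1.16 without replicate 1 or 2 at 12 h. Ppp3ca fell over the same step by 2.62 and by 1.59 and then rose from 12 h to 24 h by 2.75 and 2.76. Ppp3cc rose in that second step, by 1.73 and 2.30. Nfatc3 rose from 12 h to 24 h by 1.22 after 80 μg, and by 0.68 after 0.8 μg, the latter by adjusted p alone. Rcan1 fell by 1.19 from 12 h to 24 h after 80 μg (adjusted p = 0.00794 by DESeq2). This step passed neither threshold under 3 alternatives. It was lower by 0.92 (adjusted p = 0.0833) without replicate 2 of 80 μg at 12 h and by 0.94 (adjusted p = 0.0663) without replicate 2 at 24 h. With counts thinned to the smallest library it was lower by 0.90 (adjusted p = 0.109). From 4 h to 12 h, 4 members passed after 0.8 μg and 3 after 80 μg, against 20.5% and 24.8% of all genes. By adjusted p alone 5 passed at each dose, against 39.1% and 42.9%. Those after 80 μg include Ppp3cb, at -0.37 (adjusted p = 0.0275), which was above 0.05 with library totals (-0.24, adjusted p = 0.263), in thinned counts (-0.29, adjusted p = 0.126), in a fit of only the groups compared (-0.36, adjusted p = 0.0613), and without replicate 1 at 4 h (-0.22, adjusted p = 0.246) or replicate 2 or 3 at 12 h (-0.33 and -0.29, adjusted p = 0.0953 and 0.143). From 12 h to 24 h, 2 passed after 0.8 μg and 4 after 80 μg against 26.6% and 27.2%, and by adjusted p alone 4 and 5 against 44% and 44.7%. The Timer gate changes at each of these steps.

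Across the 21 libraries, rlog values of Nfatc1 ran opposite to those of Nfatc2 (Pearson r = -0.91) and Nfatc3 (r = -0.91), while Nfatc2 and Nfatc3 ran together (r = 0.88). Nfatc1 and Rcan1 had r = 0.75, and Nfatc3 and Rcan1 r = -0.81. Ppp3ca and Ppp3cc had r = 0.81, and Nfatc3 and Ppp3cc r = 0.85. Nfatc1 and Ppp3ca had r = -0.23. These libraries fall into 7 groups of 3 and share the same conditions, so the values are descriptions.

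The search for genes of like pattern took those averaging 50 or more normalised counts (6632 candidates, 6633 for Rcan1). Those most like Nfatc1 were Hivep3, Slc7a1 and Otud4 (r = 0.96 to 0.97). Nfatc2 was most like Auh, Inpp5b and Ppt1 (r = 0.95), and Nfatc3 like S100a10, Tmem9b and Pik3cd, a subunit of phosphoinositide 3-kinase (r = 0.98). Ppp3ca was most like Btg2, Zdhhc20 and Rictor (r = 0.96) and Ppp3cc like Txnip, Rapgef4 and Smim14 (r = 0.96 to 0.98). The closest genes to Rcan1 were Rnf220, Zfp609 and Btbd9 (r = 0.85 to 0.88), and to Ppp3cb Cbx7, Clcf1 and March7 (r = 0.80 to 0.82), the 2 members with the weakest likeness to any other gene.

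The rest of the route was taken from 5 lists. Of the 20 genes of calcium entry and release, 4 rose and 7 fell at 4 h after 0.8 μg, and 3 rose and 8 fell after 80 μg, where 40.7% and 43.5% of all genes passed. At 24 h, 1 rose and 2 fell, and 3 rose and 3 fell, against 17.3% and 20.2% of all genes. By the size of their dose difference at 4 h, the genes to name are Atp2b4, a plasma membrane calcium pump, Atp2a3, a calcium pump of the endoplasmic reticulum, and Plcg1, phospholipase C gamma 1. Atp2b4 was at 70.6 ± 26.6 normalised counts (SD, n = 3) after 80 μg and 6.74 ± 4.44 after 0.8 μg, a log2 difference of 3.23 (adjusted p = 1.08e-12 by DESeq2). Atp2a3 and Plcg1 were lower after 80 μg, at -1.65 and -1.02. At 12 h Atp2b4 remained higher after 80 μg, at 2.52, and Orai2, a store-operated channel subunit, was higher at 1.14 (adjusted p = 0.0428 by DESeq2), on at most 28 raw counts.

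Chosen after their values were seen, the channel subunit Orai1 rose at 4 h from 134 normalised counts in control to 915 and 741, while Orai2 fell from 308 to 10 and 13.7 and the store sensor Stim1 from 223 to 27.5 and 16. The other store sensor, Stim2, rose from 198 to 430 after 0.8 μg (log2 change 1.12) and stood at 233 after 80 μg (0.24, adjusted p = 0.262 by DESeq2).

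Of the 6 other NFAT, calcineurin and RCAN genes, 3 were tested: Nfat5, Ppp3r1 and Rcan3. Also named after their values were seen, Nfat5, the calcineurin-independent family member, rose at 4 h after 80 μg to 783 normalised counts from 274 in control (log2 change 1.51), against 459.7 after 0.8 μg (0.74, by adjusted p alone). The regulatory subunit Ppp3r1 stood at 289 and 277 at 4 h against 362 in control, a log2 change of -0.32 (adjusted p = 0.0529) and -0.39 (adjusted p = 0.0171). It was higher by adjusted p alone at 12 h, at 0.54 and 0.59. Rcan3 fell at 4 h from 87.8 to 15.3 and 7.32, opposite to Rcan1.

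Of the 8 calcineurin binding proteins and inhibitors, 7 were tested, and 3 rose and 2 fell at 4 h after 0.8 μg, and 2 rose and 2 fell after 80 μg, against the same 40.7% and 43.5% of all genes. Bcl2, a survival protein that also binds calcineurin, was higher after 80 μg than after 0.8 μg at 4 h, at 255 ± 52.9 against 122 ± 29.6 normalised counts (SD, n = 3), a log2 difference of 1.06. Both lay below the 1384 of the control. Of the 12 genes of NFAT kinases and cytoplasmic retention, 10 were tested against control at 4 h, with 1 rising and 2 falling at each dose, against 40.7% and 43.5% of all genes. Between the doses, 7, 8 and 7 of the 12 were tested at 4 h, 12 h and 24 h, and none passed both thresholds, where 5.85%, 2.79% and 1.56% of all genes did. By adjusted p alone 2 of the 7 were lower after 80 μg at 4 h, against 12% of all genes.

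Of 20 genes known as NFAT targets in T cells, 18 were tested, of which 14 rose and 2 fell at 4 h after 0.8 μg and 15 rose and 1 fell after 80 μg. Their median log2 change was 4.17 and 4.42, against -0.13 and -0.15 over all genes tested. Nr4a3 is among them, and cells were sorted on its reporter. The share of all genes that passed at 4 h was 40.7% and 43.5%. At 24 h, 6 rose and 1 fell, and 8 rose and 2 fell, against 17.3% and 20.2% of all genes. Between doses at 4 h, 7 of 15 tested were higher after 80 μg and 2 lower, at 12 h 5 were higher and 5 lower, and at 24 h none was higher and 4 were lower, against 5.85%, 2.79% and 1.56% of all genes. Il2 was at 1514 ± 439 normalised counts after 80 μg and 155 ± 44.2 after 0.8 μg (SD, n = 3). Ctla4 was at 344 ± 85.3 against 3.46 ± 2.15, with at most 4 raw counts in a library of 0.8 μg. Ifng was at 315 ± 397 against 4.11 ± 3.67, with a wide spread after 80 μg. At 12 h Ctla4 and Il2 were again higher after 80 μg, at 2.40 and 1.97, and Nr4a1 was lower, at -2.19 (adjusted p = 6.1e-07 by DESeq2).

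**Figure D4:**
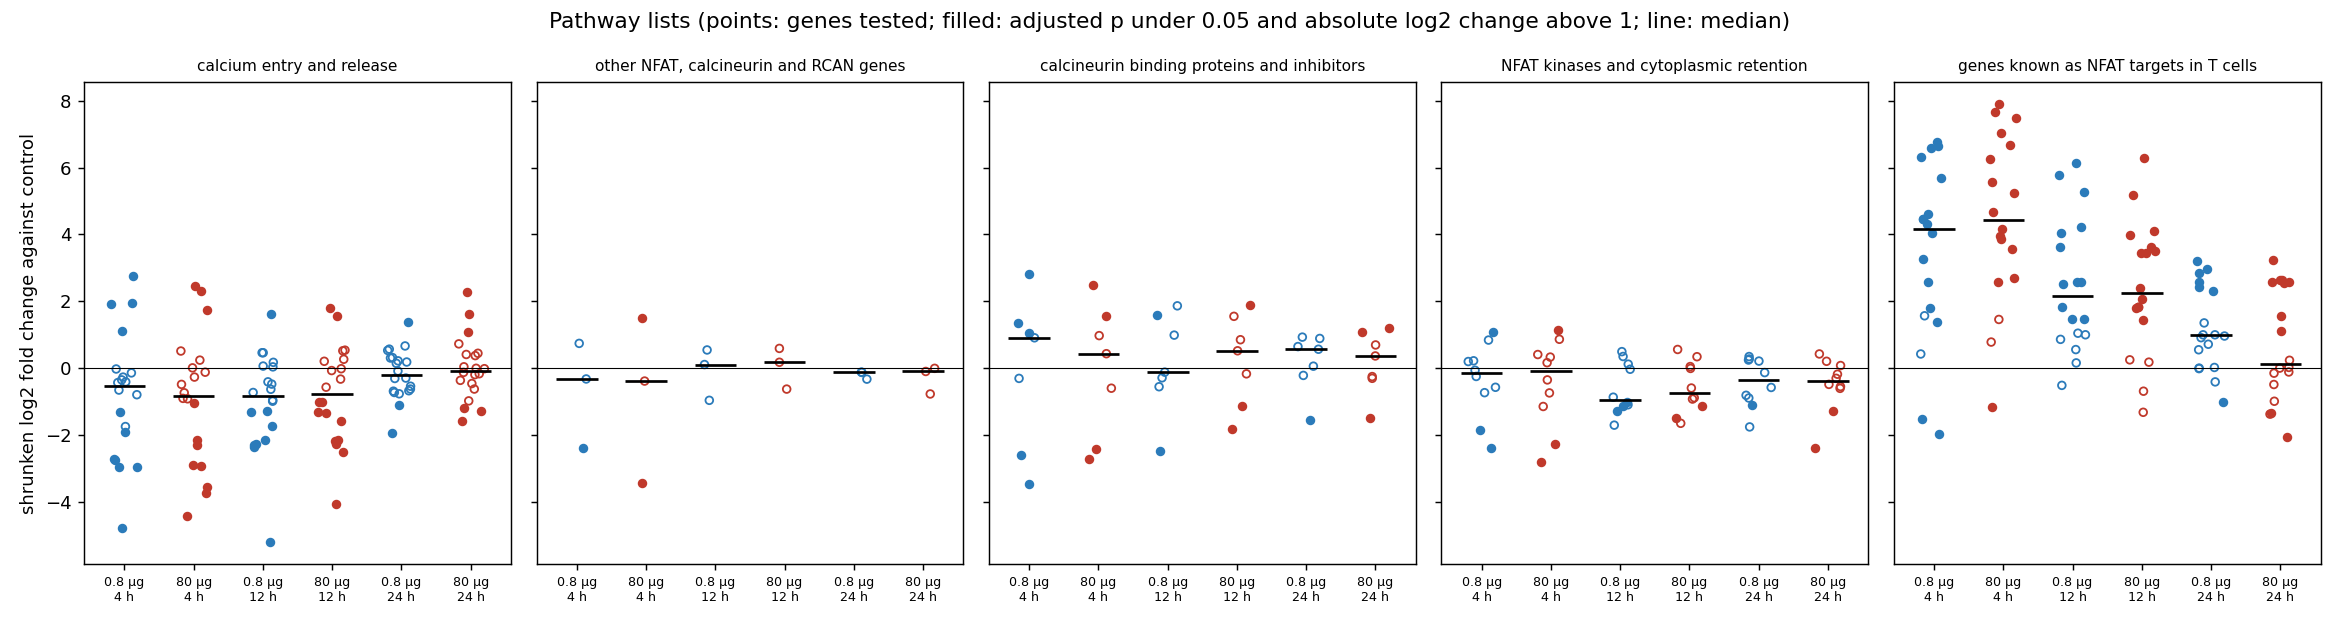
Shrunken log2 fold change against control (vertical axis, shared) of the genes tested in each of the 5 pathway lists, for the 6 immunised groups (horizontal axes). Points are genes, filled where the adjusted p was under 0.05 and the absolute change above 1, and lines are medians. The median of the NFAT targets is 4.17 and 4.42 at 4 h and 0.98 and 0.13 at 24 h, while the medians of the other lists lie between -0.95 and 0.91.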

How the data were processed

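Sorted CD4+ T cells from 21 mice were profiled with forward QuantSeq 3′ libraries. The authors trimmed reads with Bbduk, aligned them with STAR 2.5.2a to GRCm38 and counted reads per Ensembl gene with HTSeq, and they deposited raw counts and regularised log2 (rlog) values. The annotation release and the strand setting are not given in the sources used here. Here, DESeq2 1.42.0 (Wald test) was fitted to the deposited counts of all 21 libraries, after removal of genes under 10 counts in total. Log2 fold changes were shrunken with the normal prior, and p-values adjusted by Benjamini-Hochberg over all genes tested. Calls needed an adjusted p under 0.05 and an absolute log2 change above 1. For the interaction of dose with time, a likelihood ratio test used 18 libraries. The rlog values served for correlations, and CPM was computed from counts for markers. The 7 members and all lists were chosen with earlier results of these data known. Named list genes were up to 3 per list with the largest absolute log2 change among those called between doses at 4 h and at 12 h. The scripts were tested on simulated data. The p-values weigh each difference against the spread between libraries of the same group, estimated per gene over all groups in the fit. Alternatives were edgeR 4.0.16 (quasi-likelihood, TMM), TMM sizes in DESeq2, no filter, unshrunken changes, only the groups compared, a replicate block, thinning of counts to the smallest library (seed 7) and leaving out each library. Scaling by library totals was chosen after seeing the data. Values of some list genes are not reported here.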

Additional observations from a re-analysis of the deposited data

Results flagged for a closer look

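The effect of dose on Nfatc1 differed between times, and the largest minus the smallest log2 difference of 80 μg from 0.8 μg over 4 h, 12 h and 24 h was 0.77 (interaction of dose and time, DESeq2 likelihood ratio test, adjusted p = 4.78e-09). Nfatc1 was lower after 80 μg in 3 of 3 libraries at 4 h and higher in 3 of 3 at 12 h, relative to every 0.8 μg library of that time. The effect of dose on Ppp3ca also differed between times, with a range of 1.04 (adjusted p = 0.00547). All 3 libraries of 80 μg lay below those of 0.8 μg at 4 h and above them at 24 h, and the doses overlapped at 12 h. The sorting gate changed with time, and its part in these differences cannot be told apart from that of time.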

How the results depend on the processing

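Of 1414 values of single members under an alternative, 1355 kept their direction and their call by both thresholds together (for the interaction of dose and time, which has no direction, their side of the adjusted p threshold), 18 lost and 8 gained a call, 3 of these 8 being the interaction of Nfatc3, and 33 changed sign, none of them a value that was called. Scaled by library totals, Nfatc3 at 24 h after 80 μg against control was -0.21, Ppp3cb and Ppp3cc from 4 h to 12 h after 0.8 μg 0.061 and 0.021, Rcan1 and Ppp3cb from 12 h to 24 h after 0.8 μg -0.11 and -0.12, and Nfatc2 and Ppp3cb over that step after 80 μg -0.090 and -0.034. That scaling moved the median unshrunken log2 change of genes averaging 20 or more normalised counts, for example from 0.03 to -0.21 at 24 h after 80 μg against control. Thinned, the first of these was -0.0076, and Rcan1 and Ppp3cb from 12 h to 24 h after 0.8 μg were -0.087 and -0.012, and -0.033 and -0.057 with only the 2 groups compared. The cause was not tested.

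Leaving out each library in turn gave -0.027 to 0.076 for Nfatc3 at 24 h after 80 μg against control. It gave -0.18 to 0.0028 and -0.42 to 0.13 for Ppp3cb and Ppp3cc from 4 h to 12 h after 0.8 μg, -0.11 to 0.28 for Ppp3cc after 80 μg, and -0.053 to 0.0997 and -0.23 to 0.29 for Ppp3cb and Rcan1 from 12 h to 24 h after 0.8 μg. For the dose differences it gave -0.35 to 0.016 (Nfatc2) and -0.13 to 0.13 (Ppp3cb) at 4 h, -0.15 to 0.086 (Nfatc3) and -0.038 to 0.46 (Rcan1) at 12 h, and -0.066 to 0.34 (Ppp3cc) at 24 h. Members called at 24 h after 80 μg against control numbered 1 to 2. The other counts of members called stayed within 1.5 times their value under every alternative.

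With a replicate block, members called against control numbered 6, 4 and 2 at 4 h, 12 h and 24 h at each dose, and 2 had an interaction of dose and time, as without it. Of all genes, 5446 and 5794 passed with the block at 4 h (0.8 μg and 80 μg), 5006 and 5147 at 12 h and 2144 and 2550 at 24 h. The interaction passed in 903 genes with the block, against 1036 without it. The labels do not say whether equal replicate numbers mark libraries handled together, and correlations between libraries cannot settle it. Of 63 same-numbered pairs, 6 had a correlation over 0.1, and 9 of 21 libraries correlated best with their own number. The median correlation was 0.0065 for same-numbered pairs and -0.0015 for other pairs. Raw counts per library were 10 to 19 for Nfatc2 at 4 h, 9 to 29 for Ppp3cc at 4 h and 12 h, 21 to 52 for Ppp3ca at 12 h and 11 to 58 for Rcan1, which limits the precision of these values.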
